A study of Mus musculus with 5 samples.

Results

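A set of 10 genes that sense, bridge or expose phosphatidylserine was followed in cultured mouse muscle cells: the adhesion receptors Adgrb1, Adgrb2 and Adgrb3 (also called BAI1, BAI2 and BAI3), the receptors Stab2, Megf10, Mertk and Axl, the bridging proteins Gas6 and Mfge8, and the scramblase Xkr8. They are 10 of the 54232 genes in the table, listed by name with no threshold on their values. RNA was sequenced from primary myoblasts isolated from mouse leg muscle with magnetic beads and differentiated for 72 h. WT cultures (n = 3) were compared with Elmo2EID/EID cultures (n = 2), which were homozygous for a knock-in mutation in the ELMO inhibitory domain (EID) that favours the open conformation of ELMO2. The knock-in is present in the whole animal, all animals of the study were on a mixed C57BL6 and 129SV background, and myoblasts were isolated from mice 6 to 8 weeks old. Primary cell experiments in the study typically drew on 3 independent mice, and whether each of these cultures came from 1 animal is not given in the sources used here. The p-values therefore measure the spread between these samples.

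Phosphatidylserine is a phospholipid that healthy cells keep on the inner side of the plasma membrane. Scramblases expose it on dying cells, and also locally on fusing myoblasts. Receptors recognise the lipid directly, as Adgrb1 and the stabilins are known to do, or through bridging proteins: C1q has been described as a bridge to MEGF10, GAS6 links it to the receptor tyrosine kinases of the TAM family (TYRO3, AXL and MERTK), and MFGE8 links it to integrins that contain the alpha V subunit. Adgrb1 binds ELMO, which together with DOCK1 or DOCK5 activates RAC1, so that this receptor family stands directly upstream of the protein altered in these mice.

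Values are reads per gene after scaling by size factors from DESeq2 (normalized counts). The samples held between 35021856 and 49381544 reads, and 3 reads, taken as the detection floor, corresponded to 2.65 to 3.73 normalized counts. These limits cover counting error only. The cultures expressed the muscle programme that their label implies, with 8 markers of differentiated muscle summing to between 1322655.1 and 1628295.1 normalized counts per sample. The muscle cells were not alone: endothelial markers were detected in each sample, at summed levels of 845.8 to 2361 normalized counts in WT, against 4369 and 6447 in Elmo2EID/EID cultures. The 9 pericyte and smooth muscle markers differed in direction. Limma called 2, against 2.23% of all tested genes, both lower in Elmo2EID/EID (Rgs5 with a log2 fold change of -2.97 and Notch3 with -1.55, adjusted p = 0.00759 and 0.028), while Myh11, Cspg4 and Mcam were higher in both Elmo2EID/EID cultures than in WT without passing (1.42, 0.39 and 0.61, adjusted p = 0.251, 0.264 and 0.501). Acta2 made up 72.5% to 78.3% of their summed level, and the 8 others summed to 12349 to 14246 normalized counts in WT, against 11761 and 11408 in Elmo2EID/EID cultures. In bulk RNA, a smaller number of cells of one type and less RNA per cell cannot be told apart.

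By the threshold of 5 or more normalized counts in at least 1 sample, 9 of the 10 genes were expressed, and 6 reached it in every sample (Megf10, Axl, Gas6, Mfge8, Xkr8 and Mertk). Exon lengths came from a later annotation than the one named for the counting, and their match to the counted exons was not tested. Per kilobase of exon, the order of the mean level over the 5 samples was Gas6, Megf10, Axl, Mfge8, Xkr8, Mertk, Adgrb2, Stab2, Adgrb1 and Adgrb3. Gas6 and Megf10, at 2721 and 2687 normalized counts per kilobase, did not differ beyond their spread, since Gas6 was the higher in 3 of 5 samples. Below them, Axl at 1300.4, Mfge8 at 590.2, Xkr8 at 116.3 and Mertk at 24.9 normalized counts per kilobase held this order in each of the 5 samples without overlap of neighbouring ranges. Adgrb2, Stab2 and Adgrb1, all under 1 normalized count per kilobase on average, overlapped one another. Among the 18142 tested genes with an annotated length, Gas6 ranked at position 636 and Megf10 at 646, and Mertk at 11893.

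**Figure D1:**
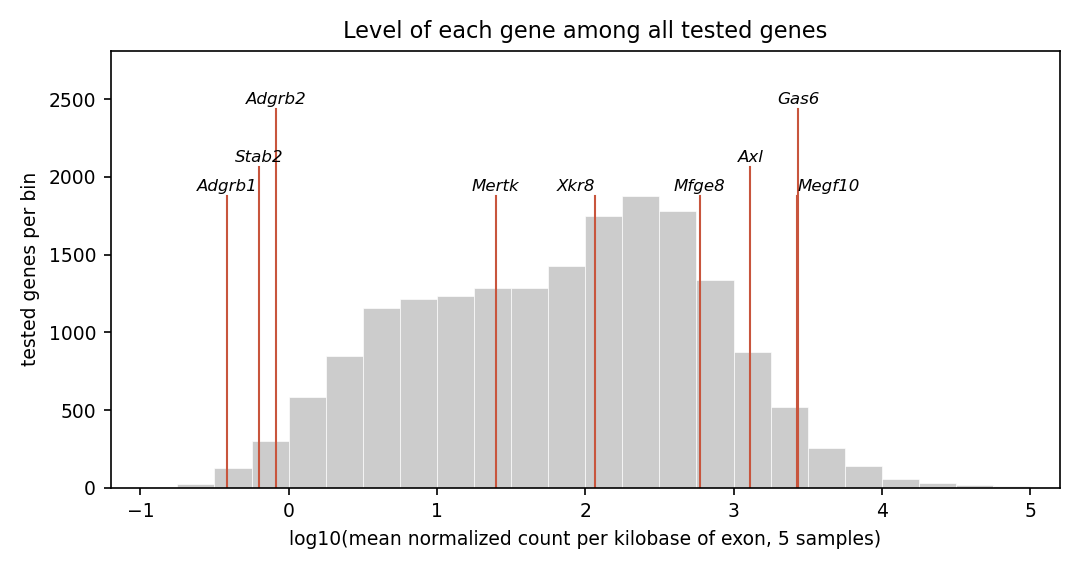
Mean level over the 5 samples, in normalized counts per kilobase of exon on a log10 axis, of 9 of the genes (red lines) against the number of tested genes per bin (grey bars). Adgrb3, at 0, is not drawn. Gas6 and Megf10 lie at the right flank of the distribution, and Adgrb1, Adgrb2 and Stab2 at its left end.

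Little RNA of the Adgrb receptors was detected. Adgrb1 (ENSMUSG00000034730, chromosome 15, 74516195 to 74589465, GRCm38) had 3, 1 and 1 reads in WT replicates 1, 2 and 3, and 8 and 2 reads in Elmo2EID/EID replicates 1 and 2. Adgrb2 (ENSMUSG00000028782, chromosome 4, 129984870 to 130022633) had 9, 4 and 2 reads in WT, against 4 and 9 in Elmo2EID/EID samples. Adgrb3 (ENSMUSG00000033569, chromosome 1, 25067476 to 25829707) had 0 reads in all 5 samples, which allows a level of up to 3 reads in the 35021856 to 49381544 of a sample. Taken as a family, the 3 receptors had 12, 5 and 3 reads in WT, against 12 and 11 in Elmo2EID/EID samples. The groups overlapped for Adgrb1 and for Adgrb2, and neither passed limma's test (adjusted p = 0.596 and 0.903, with Benjamini-Hochberg adjustment over all tested genes throughout). On the log2(normalized count + 1) scale, the 95% confidence intervals of the fold were wide. They ran from 0.621 to 5.47 for Adgrb1 and from 0.44 to 3.06 for Adgrb2. The summed family was not tested.

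The highest Adgrb1 value, 8 reads, came from Elmo2EID/EID replicate 1, the sample in which 6 of 10 macrophage markers were also highest. The summed macrophage markers were at 250.4 normalized counts there and at 92.8 to 111 in the other 4 samples. Lyz2 alone supplied 134.1 of the 250.4. Itgam was lower there than in any other sample, and Cd68 and Cd14 were higher in Elmo2EID/EID replicate 2. Ptprc was at 2.68 or less and Fcgr1 at 0 throughout. The part of macrophages in the Adgrb1 reads was not tested.

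Stab2 (ENSMUSG00000035459, chromosome 10, 86841198 to 87008025), a scavenger receptor of sinusoidal endothelium, had 4, 6 and 1 reads in WT, against 7 and 11 in Elmo2EID/EID samples. Both Elmo2EID/EID read counts exceeded the 3 WT read counts, but on the normalized scale, which corrects for sequencing depth, WT replicate 2 (6.73) lay above Elmo2EID/EID replicate 1 (6.26), and the groups overlapped. The limma p was 0.494 after Benjamini-Hochberg adjustment. On the log2(normalized count + 1) scale, the 95% confidence interval of the fold ran from 0.738 to 5.82. Its relative Stab1, which also binds phosphatidylserine, was more abundant, at 18.6, 11.2 and 19.9 normalized counts in WT, against 49.2 and 47.5 in Elmo2EID/EID samples. The groups did not overlap. The log2 fold change was 1.53 with a standard error of 0.33, and after Benjamini-Hochberg adjustment p was 0.0767 in limma, 0.0565 in edgeR's quasi-likelihood test and 0.0262 in the DESeq2 Wald test. Stab1 was singled out after its values were seen. Endothelial markers had the same order of groups, since for 11 of 12 the lower Elmo2EID/EID value exceeded the highest WT value, as it did for 16.7% of all tested genes. Their part in the Stab1 and Stab2 values was not tested.

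Megf10 (ENSMUSG00000024593, chromosome 18), a receptor of the EGF-repeat engulfment family that is known to act in satellite cells and whose loss causes an early-onset myopathy, was the most abundant receptor of the 10. It had 20081, 22799.6 and 21335 normalized counts in WT, against 20130.5 and 19353 in Elmo2EID/EID samples. The Elmo2EID/EID values lay at and just below the lowest WT value, and the groups overlapped. The log2 fold change was -0.12 (standard error, SE, 0.07, limma, adjusted p = 0.532). The 95% confidence interval of the fold was 0.817 to 1.04, the narrowest of the 6 genes expressed in every sample. In the same cultures Pax7, the transcription factor of satellite cells, fell from 900.4 ± 56.2 normalized counts (SD, n = 3) to 355.9 ± 82.3 (SD, n = 2; limma, adjusted p = 0.00764). Pax7 was singled out after its values were seen, as 1 of 7 markers of undifferentiated myoblasts and the only one of them called by limma, while the DESeq2 Wald test also called Vcam1, which was lower too (adjusted p = 0.02, against 0.0998 in limma). At unadjusted limma p under 0.05, which 15.2% of all tested genes reached, 4 of the 7 were lower and 1 was higher, the higher being Myf5, a myogenic regulator of myoblasts, with 3122, 2188 and 4399 normalized counts in WT, against 5152 and 5254 in Elmo2EID/EID samples (log2 fold change 0.74, limma, adjusted p = 0.237).

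**Figure D2:**
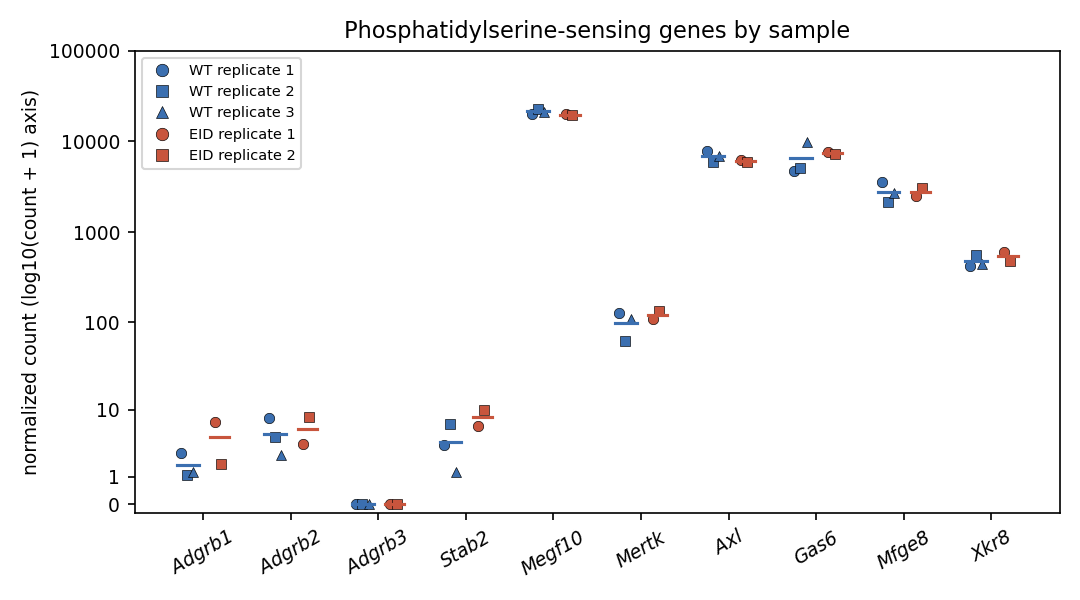
Normalized counts of the 10 genes by sample (y axis on a log10(count + 1) scale). Points are samples, with WT in blue and Elmo2EID/EID (EID) in red, and horizontal lines are group means. The groups overlap for each gene, and Adgrb3 is at 0 throughout.

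Of the TAM receptors, Axl (ENSMUSG00000002602, chromosome 7, 25757273 to 25788705) was by far the most abundant. It had 7818, 5979 and 6859 normalized counts in WT, against 6165 and 5902 in Elmo2EID/EID samples. Elmo2EID/EID replicate 1 lay within the WT range and replicate 2 just below it. The log2 fold change was -0.18 (SE 0.11, limma, adjusted p = 0.504), with a 95% confidence interval of the fold from 0.733 to 1.06. With 1 sample left out, the log2 fold change ranged from -0.28 (without WT replicate 2) to -0.086 (without WT replicate 1).

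Mertk (ENSMUSG00000014361, chromosome 2, 128698956 to 128802894), the TAM receptor best known from macrophages and the retinal pigment epithelium, had 127.2, 61.7 and 108.1 normalized counts in WT, against 108.2 and 135.4 in Elmo2EID/EID samples. WT replicate 2 was low and the other 4 samples lay close together. The log2 fold change was 0.35 (SE 0.32, limma, adjusted p = 0.675), and its 95% confidence interval in fold ran from 0.754 to 2.15. Without WT replicate 2 the log2 fold change was 0.05. The sample with the lowest WT Mertk was also the lowest WT sample in 12 of 12 endothelial markers and in 6 of 8 Schwann cell markers. The same held for 5 of 9 fibro-adipogenic markers and 5 of 9 pericyte and smooth muscle markers. It held for only 2 of 10 macrophage, 2 of 7 undifferentiated myoblast and 1 of 8 differentiated muscle markers. The summed macrophage markers were highest within WT in this sample (111 normalized counts, against 92.8 and 98.2). Of these sums, Lyz2 made up 32.53 in WT replicate 2, against 6.185 and 6.215 in WT replicates 1 and 3. The part of these cells in the Mertk values was not tested. Mertk lies on the same chromosome as Elmo2, 36.5 Mb away.

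Summed per kilobase with Tyro3, the third TAM receptor, Axl made up 94.9%, 94.1% and 94.8% of TAM receptor RNA in WT, against 94.2% and 94.0% in Elmo2EID/EID samples. Mertk made up 1.79%, 1.13% and 1.74% in WT, against 1.92% and 2.503% in Elmo2EID/EID samples. The Mertk shares did not overlap, but with 3 samples against 2 the two-sided exact permutation test cannot go below p = 0.1, the value it gave (0.5 with Benjamini-Hochberg adjustment over 5 such shares, which were chosen after the values were seen). The Axl share had an exact permutation p of 0.3 and the Tyro3 share of 1 (adjusted 0.667 and 1).

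Gas6 (ENSMUSG00000031451, chromosome 8, 13465374 to 13494490), the ligand of all the TAM receptors, varied most within WT among the 6 genes expressed in every sample. It had 4731, 5077 and 9926 normalized counts in WT, against 7690.3 and 7246 in Elmo2EID/EID samples. Both Elmo2EID/EID values lay between WT replicates 1 and 2, which were low, and WT replicate 3, which had 2.10 times the lowest WT value. The log2 fold change was 0.27 (SE 0.30, limma, adjusted p = 0.742), and the 95% confidence interval of the fold ran from 0.735 to 1.97. The call depended on WT replicate 3. Without this sample, the log2 fold change was 0.61 and the adjusted limma p was 0.0206, the only setting in which any of the 10 genes passed. Blocking on the replicate number, in which WT replicate 3 has no partner, gave 0.61 and 0.0522.

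WT replicate 3 also stood highest within WT in Schwann cell markers, with a mean log2(normalized count + 1) over the 8 markers of 5.68, 4.51 and 6.99 in WT, against 7.08 and 6.62 in Elmo2EID/EID samples. Erbb3 alone made up 94.4% to 99.0% of their summed level, which lay between 15621 and 17092 normalized counts, and the 7 others summed to 288.0, 176.1 and 775.7 in WT, against 893.4 and 554.0 in Elmo2EID/EID samples. Sox10, which defines the neural crest lineage, had 18.6, 2.24 and 97 normalized counts in WT, against 89.4 and 43.0 in Elmo2EID/EID samples. The part of these cells in the Gas6 values was not tested. Pros1, the other TAM ligand, had 262.4, 177.2 and 233.7 normalized counts in WT, against 198.5 and 203.5 in Elmo2EID/EID samples, overlapping groups. Per kilobase, Gas6 made up 96.7% to 98.5% of the RNA of both ligands across the 5 samples (exact permutation p = 0.6 between the genotypes, adjusted 0.75).

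**Figure D3:**
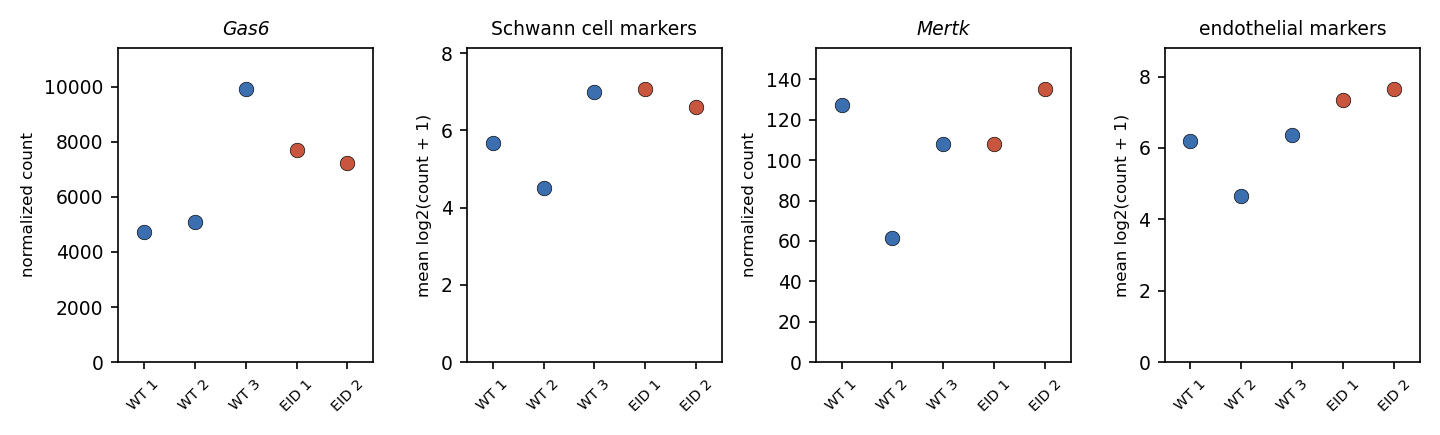
Gas6 and Mertk (normalized counts) beside the mean log2(normalized count + 1) of 8 Schwann cell markers and 12 endothelial markers, 1 point per sample, WT in blue and Elmo2EID/EID (EID) in red. Gas6 is highest in WT replicate 3, and Mertk and the endothelial markers are lowest in WT replicate 2.

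Mfge8 (ENSMUSG00000030605, chromosome 7, 79133768 to 79149060), a secreted bridge between phosphatidylserine and integrins, had 3540.3, 2141 and 2668 normalized counts in WT, against 2478 and 3026 in Elmo2EID/EID samples. Both Elmo2EID/EID values lay within the WT range, and WT replicate 2 was the lowest of the 5, as for Mertk. Its log2 fold change of 0.01 (SE 0.20, limma, adjusted p = 0.992) changed sign with the scaling, and the 95% confidence interval of the fold was 0.72 to 1.404. Among the integrin subunits it can engage, Itgav had 6826 ± 870.1 and 6921 ± 557 normalized counts (SD, n = 3 and 2) and Itgb5 4185 ± 417 and 4224 ± 681. Itgb3, at 149.3, 79.6 and 151.7 in WT, against 262.9 and 208.9 in Elmo2EID/EID samples, did not overlap between the groups and had a limma p of 0.207 after Benjamini-Hochberg adjustment.

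Xkr8 (ENSMUSG00000037752, chromosome 4, 132724897 to 132732546), the caspase-activated scramblase that exposes phosphatidylserine, had 421.4, 562 and 448.7 normalized counts in WT, against 600.1 and 476 in Elmo2EID/EID samples. Elmo2EID/EID replicate 1 was the highest of the 5, and replicate 2 fell between the WT samples. The log2 fold change was 0.17 (SE 0.16, limma, adjusted p = 0.679), with a 95% confidence interval of the fold from 0.867 to 1.47. It was 0.007 in log2 without Elmo2EID/EID replicate 1 and 0.341 without Elmo2EID/EID replicate 2. Per kilobase, Xkr8 supplied 62.0%, 74.1% and 59.7% of the RNA of the 7 Xk family genes in WT and 72.6% and 71.2% in Elmo2EID/EID samples, overlapping shares (exact permutation p = 0.4, adjusted 0.667). Its caspase-activated relatives Xkr4 and Xkr9 did not reach 5 normalized counts in any sample.

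Over the 10 genes, 0 of the 9 tested passed an adjusted p of 0.05 by limma, edgeR's quasi-likelihood test or the DESeq2 Wald test, and 0 had an unadjusted limma p under 0.05, against 15.2% of all tested genes. DESeq2 set no adjusted p for Adgrb1, Adgrb2 and Stab2. Of all 18156 tested genes limma called 2.23%, with 1.09% higher and 1.14% lower in Elmo2EID/EID samples, edgeR called 2.25% and DESeq2 5.34%. At such shares, a list of 9 genes would not be set apart by a count of 0. The values of the groups were separated for 0 of the 9 genes, against 32.6% of all tested genes. The median log2 fold change of the 9 was 0.21, 3 of them resting on 11 or fewer reads per sample. Adgrb1 reached 5 normalized counts only in Elmo2EID/EID replicate 1, so this median is not compared with that of all tested genes. Over the 6 genes that averaged 10 or more normalized counts the median was 0.09, against 0.009 over all genes passing that filter. Over the 9 it was 0.12 without WT replicate 2 and 0.14 without WT replicate 3. A p above the threshold does not show equal expression. On the log2(normalized count + 1) scale, the confidence intervals reach a fold change of 5.82 in Stab2, 5.47 in Adgrb1 and 3.06 in Adgrb2. These limits are not ceilings, since this scale can understate fold changes at so few reads. Log2 fold changes of these genes were 1.05, 0.88 and 0.21 by limma, and 1.06, 1.39 and 0.20 by DESeq2. The intervals leave room for up to 2.15 in Mertk and 1.97 in Gas6. They allow no more than 1.06 upward or 0.733 downward in Axl and 1.04 or 0.817 in Megf10.

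**Figure D4:**
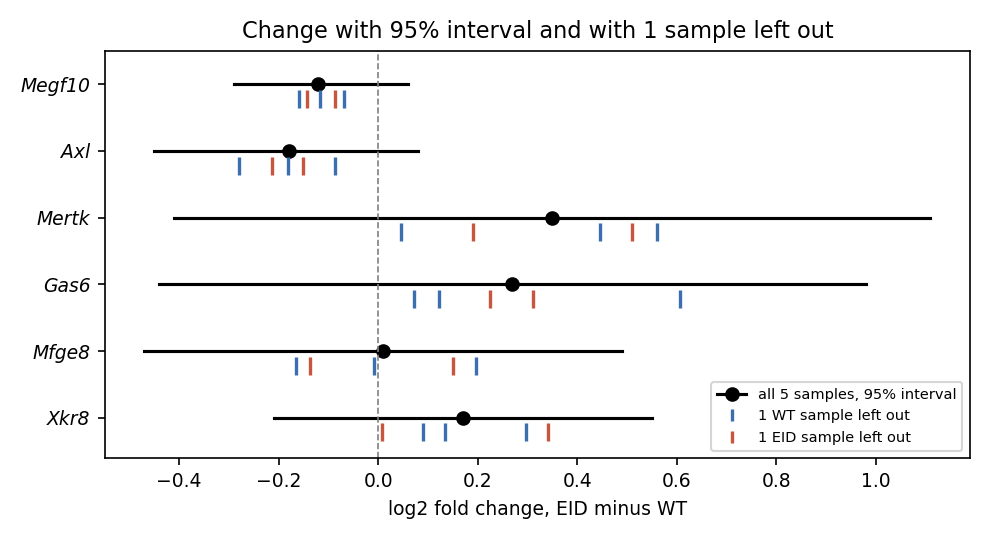
Log2 fold change, Elmo2EID/EID (EID) minus WT, of the 6 genes with 5 or more normalized counts in every sample. Dots and bars are limma estimates with 95% confidence intervals from all 5 samples, and ticks are the estimates with 1 sample left out. Each interval spans 0, and the tick farthest right for Gas6 is the estimate without WT replicate 3.

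The wider pathway was read from 5 lists of other genes. Their counts of called genes stand beside 2.23% (limma), 2.25% (edgeR) and 5.34% (DESeq2) of all tested genes. Among 19 other phosphatidylserine receptors and bridges, 13 were tested and limma called 0, with 6 at an unadjusted p under 0.05 (against 15.2% of all tested genes) and a median log2 fold change of 0.03. This median lay between 0.02 and 0.11 with 1 sample left out, and was -0.002 with quantile normalization. Thbs1, the matricellular ligand of CD36, had 31462.5 ± 8237 normalized counts in WT and 41635.5 ± 6350.3 in Elmo2EID/EID samples (SD, n = 3 and 2). Cd36 had 8630.1 ± 1040.1 and 11242 ± 2318, and both genes overlapped between the groups. The DESeq2 Wald test called 2 of the 13 (against 5.34% of all tested genes) and edgeR 0 (against 2.25%). These were Stab1 and Lrp1, an endocytic receptor that also takes part in engulfment, singled out here for that reason, with 20710.1, 21889 and 18105 normalized counts in WT, against 15253 and 16878 in Elmo2EID/EID samples (adjusted p = 0.172 in limma and 0.0453 in DESeq2). The receptors Timd4, Timd2 and Havcr1 were at 0 reads in all samples.

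For exposure of the lipid, 18 of 21 genes were tested, and limma, edgeR and DESeq2 each called 0, with 2 at an unadjusted limma p under 0.05 (against 15.2% of all tested genes). Their median log2 fold change was -0.14, with 3 of the 18 estimates above 0, against 52.1% of all tested genes. Bsg, which encodes basigin, a chaperone partner of XKR8, had 14815 ± 945.3 and 14694 ± 1488 normalized counts in WT and Elmo2EID/EID samples (SD, n = 3 and 2). Ano5, a TMEM16 family protein whose loss causes a muscular dystrophy, had 20143 ± 2063 and 16701 ± 3207, and Tmem30a, the shared subunit of flippases, 6375 ± 338.7 and 6555 ± 696.1, each with overlapping groups.

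The extracellular partners of the Adgrb receptors were low or not detected for most members of the list, and C1ql3 was the most abundant per kilobase. This C1q-like ligand of Adgrb3 had 396.7, 345.5 and 269.7 normalized counts in WT, against 254.9 and 266.3 in Elmo2EID/EID samples, groups that did not overlap but did not pass (limma, adjusted p = 0.399). C1ql4 and C1ql2 had 0 reads in all samples. Rtn4rl2 and C1ql1 were at 18.4 ± 1.54 and 4.54 ± 2.13 normalized counts in WT, against 6.71 ± 4.42 and 3.58 ± 0.00609 in Elmo2EID/EID samples (SD, n = 3 and 2). Of the 5 genes tested in this list of 7, limma, edgeR and DESeq2 each called 0, with 1 at an unadjusted limma p under 0.05 (against 15.2% of all tested genes). No median is given for these 5, since C1ql1 and Rtn4r reached 5 normalized counts only in WT.

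Downstream, all 13 engulfment signalling genes were tested, and limma, edgeR and DESeq2 each called 0, with 5 at an unadjusted limma p under 0.05 (against 15.2% of all tested genes) and a median log2 fold change of -0.11. This median was close to 0 without WT replicate 1, 2 or 3 (-0.03, -0.02 and -0.01) or without Elmo2EID/EID replicate 1 (-0.01), and -0.16 without Elmo2EID/EID replicate 2. Rac1, the GTPase activated by ELMO and DOCK, had 9950.5 ± 505.6 normalized counts in WT and 9955 ± 39.4 in Elmo2EID/EID samples (SD, n = 3 and 2). Its log2 fold change of 0.00 had a standard error of 0.07. The adaptor Crk had 6019 ± 290 and 6501.5 ± 598.7, with overlapping groups, and Rhog, a GTPase that binds ELMO, 1940 ± 82.9 and 1705 ± 29.5, without overlap but with a limma p of 0.265 after Benjamini-Hochberg adjustment. Elmo2 itself had 1613 ± 65 and 1384 ± 80.6, again without overlap but with an adjusted limma p of 0.226 (log2 fold change -0.22). Since the knock-in alters the coding sequence, this level does not check the genotype labels. Of the 6 modifiers of TAM signalling, limma, edgeR and DESeq2 each called 0, and 0 had an unadjusted limma p under 0.05 (against 15.2% of all tested genes). The sheddases Adam10 and Adam17 and the gamma-carboxylase Ggcx, which modifies GAS6, had log2 fold changes of 0.12, 0.07 and 0.05. The other modifiers, Vkorc1, Socs1 and Socs3, had -0.26, -0.61 and 0.01.

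**Figure D5:**
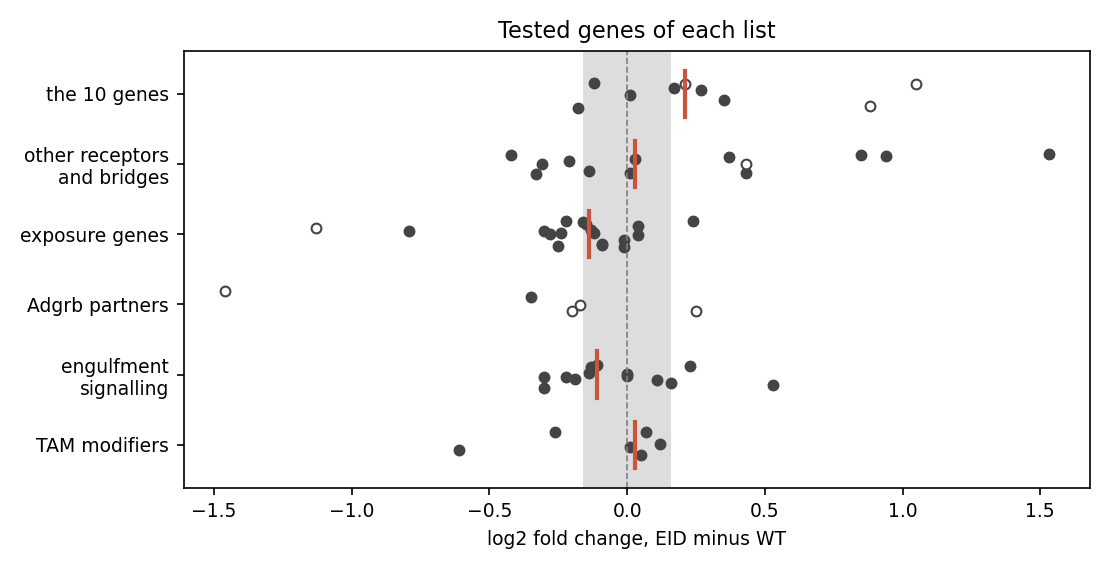
Log2 fold change, Elmo2EID/EID minus WT, of each tested gene in the 10 genes and the 5 pathway lists. Filled points had 5 or more normalized counts in every sample, open points did not, red bars are list medians (none for the Adgrb partners), the vertical position within a list carries no value, and the grey band is the interquartile range of all tested genes (-0.16 to 0.16). The open points lie farthest out in 3 of the 6 groups, and 0 of the genes drawn passed the limma test. The median of the 10 genes includes Adgrb1, which reached 5 normalized counts only in Elmo2EID/EID replicate 1.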

How the data were processed

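Per the paper's methods and the submitters' processing notes, untrimmed reads were mapped to GRCm38 with STAR 2.5.1b, and unique alignments were assigned to genes with featureCounts 1.4.6 in reverse-stranded mode. The values the authors deposited are a signal, these counts scaled by size factors from DESeq2 1.34.0. Each column was matched to a sample by its title. All positive values (100.0%) were whole multiples of the smallest value of their column within 0.01 of a read, and read counts were recovered from them. Replicates differed by more than sampling noise (chi-square per degree of freedom 24.2 to 34.4).

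Genes with 5 or more normalized counts in at least 1 sample (18156) were fitted with limma 3.58.1 with a mean-variance trend on log2(normalized count + 1), two-sided, and called at a Benjamini-Hochberg adjusted p under 0.05. Fold changes on this scale understate those of low genes. Symbols, positions and exon lengths (union of exons) came from GENCODE M21, which matched 54165 of 54232 identifiers. The paper's methods name an earlier ENSEMBL release for counting, so per-kilobase levels, ranks and shares may rest on other exon lengths than those counted. Alternatives were other pseudocounts, filters and scalings, edgeR 4.0.16 and DESeq2 1.42.0 on the recovered reads, no trend, a replicate block and leaving out each sample. Named genes were the 10 genes and, per list, those called and the 3 highest per kilobase, and all others (such as Stab1, Lrp1, Tyro3, Pros1, Itgav, Itgb3, Elmo2, Pax7, Myf5, Vcam1, Rgs5, Notch3, Myh11, Cspg4, Mcam, Acta2, Erbb3, Rtn4r, Sox10, Xkr4 and C1ql4) were chosen after their values were seen. Genes and lists were proposed with earlier results of these data known. Scripts were tested on simulated data. R 4.3.3 and Python 3.11.15 were used.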

Additional observations from a re-analysis of the deposited data

How the results depend on the processing

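The count over all genes moved most: 404 genes passed in the limma fit, against 155 without a filter on low values, 969 by the DESeq2 Wald test, 144 without the mean-variance trend and 224 with the replicate number as a block, and between 34 and 335 with 1 sample left out. Among the 10 genes the count was 0 in 14 of 15 alternatives and between 0 and 1 with 1 sample left out, the 1 being Gas6 without WT replicate 3. DESeq2 called 2 of the 13 other receptors and bridges tested (against 5.34% of all tested genes), and the remaining 4 lists had 0 calls in each of 15 alternatives. The replicate numbers come from the sample labels, and 2 numbers were shared. Across 15107 genes, the step from replicate 1 to replicate 2 correlated at -0.201 between the genotypes, so the block was kept as an alternative only. With the replicate block, 0 of the 10 genes passed. Signs changed for 2 of the genes, neither called in any setting. Mfge8 had a log2 fold change of -0.005 with quantile normalization, -0.006 with equal totals, -0.024 by edgeR, -0.017 by DESeq2, -0.008 with the block, and between -0.166 and 0.196 with 1 sample left out. Adgrb2 had -0.121 with the block and between -0.279 and 0.708 with 1 sample left out. Low counts limit Adgrb1, Adgrb2, Adgrb3 and Stab2, and 2 and 3 samples limit all of them.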
